A study of Mus musculus with 265 samples.

Results

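The genes of the cytosolic ribosome were followed through 78 accessible regions at 69 genes. They were taken from a matrix of 20103 regions in mouse pre-B cells. A region was included when its midpoint lay within 1000 bp of the start site of a protein-coding gene of GENCODE vM21 that encodes a protein of the large (Rpl) or small (Rps) ribosomal subunit, with Rplp0, Rplp1, Rplp2 and Rpsa included and the kinases of the Rps6k family left out. The rule matched 92 genes, of which 69 had a region, 43 named for the large subunit and 26 for the small. Chosen by symbol alone, the 69 genes include the paralogs Rpl22l1, Rpl36al, Rpl7l1 and Rps27l, and Rps19bp1, which encodes a binding partner of Rps19 and not a subunit. Of the 23 genes with no region in the matrix used here, 10 carry paralog or pseudogene names (Rpl10-ps3, Rpl10l, Rpl36-ps4, Rpl36a-ps1, Rpl39l, Rpl3l, Rpl9-ps1, Rpl9-ps6, Rps12-ps3 and Rps27rt). The other 13 include Rpl13a, Rpl15, Rpl17, Rpl19, Rpl3, Rpl35a, Rps10, Rps14, Rps2, Rps21 and Rps29.

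Ribosomal protein genes are active in essentially every cell, and their products are made in step with ribosomal RNA so that the subunits can be assembled in the nucleolus. Many of their transcripts begin with a C followed by a run of pyrimidines, the 5′ terminal oligopyrimidine tract, through which growth signals acting on mTOR control their translation. Several host small nucleolar RNAs (snoRNAs) in their introns, which guide the chemical modification of ribosomal RNA. Pre-B cells divide and grow before they stop cycling and mature, and Ikaros is a zinc-finger factor that drives this step.

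The cells were ERt2-Ikaros inducible B3 cells, pre-B cells of the mouse carrying Ikaros joined to a hormone-binding part of the estrogen receptor. Both groups carry the construct, which 4-hydroxytamoxifen brings into the nucleus. They were taken before (0 hours) and 24 hours after the drug was added. Single-cell ATAC-seq, in which Tn5 transposase cuts and tags open DNA, was performed in 2 Fluidigm C1 runs for each time-point, with 48 and 47 cells at 0 hours and 60 and 72 cells at 24 hours. The system is 1 inducible line, and the sources used here do not say whether the runs came from separate cultures, so p-values measure the spread between runs. Counts were summed over the cells of a run, giving 164357 and 92639 counts at 0 hours and 122586 and 142611 at 24 hours. The median cell held 2898, 1787, 1839.5 and 1676 counts in that order, and no value for a region in a cell is above 2.

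The tract was found at the start sites of some members. Of the 69 genes, 55 could be matched by symbol to RefSeq start sites (GRCm38.p6, the same build as mm10). In 9 of these 55 genes (16.4%) the base at the annotated start was a C with at least 5 pyrimidines from it, against 2.63% of 6614 other genes with a promoter region. The starts are annotated and were not measured, so this does not count the genes whose transcripts carry a tract. The 6 start sites below, chosen because their regions recur in the results or show the range of the tracts, are given as 40 bases before the start and 20 from it, on the gene's own strand, with the pyrimidine tract from the first base in capitals.
Rps18: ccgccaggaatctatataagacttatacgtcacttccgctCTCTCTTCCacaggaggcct
Rpl35: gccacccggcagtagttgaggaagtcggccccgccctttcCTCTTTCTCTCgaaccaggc
Rps6: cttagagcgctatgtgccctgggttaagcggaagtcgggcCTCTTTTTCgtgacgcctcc
Rps15a: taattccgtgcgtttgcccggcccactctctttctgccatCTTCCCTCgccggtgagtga
Rpl38: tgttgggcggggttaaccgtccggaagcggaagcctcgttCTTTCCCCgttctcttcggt
Rplp2: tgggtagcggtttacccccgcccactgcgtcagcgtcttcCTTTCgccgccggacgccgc
These windows lie at chr17:33955646-33955705, - strand; chr2:39005112-39005171, - strand; chr4:86857348-86857407, - strand; chr7:118116128-118116187, - strand; chr11:114668540-114668599, + strand; and chr7:141447611-141447670, + strand. The tract was 11 bases long in Rpl35, 9 in Rps18 and Rps6, 8 in Rps15a and Rpl38 and 5 in Rplp2. The other genes of the 9 were Rpl14, Rpl28 and Rps27. The Rpl38 window also holds CCGGAAG, an ETS family motif, and the Rps15a window AAGATGGC, a YY1 motif. A looser measure, chosen after the values were seen, was the longest pyrimidine run within 20 bases of the start. It had a median of 7 bases against 5 in the other genes and reached 10 or more in 32.7% of the 55 genes against 8.53%.

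The regions sat close to the annotated starts. Their midpoints lay a median of 53.5 bp away, 57 of 78 within 100 bp and 67 within 200 bp, with 47 upstream of the start and 31 at or past it. By GENCODE transcripts the 31 comprised 23 in UTR exons, 5 in introns, 2 in noncoding exons and 1, of Rpl7l1, in a coding exon. Of 63 regions at genes matched in RefSeq, 38 covered a RefSeq start, although the Rpl18 and Rps24 regions lay 2778 and 3581 bp upstream of it, since the GENCODE start of these genes is farther upstream. Widths ran from 12 to 205 bp with a median of 150 bp. At the limit of the rule, the farthest members were a Rpl38 region at 572 bp, detected in 6 cells, and a Rpl10 region at 552 bp, detected in 23. The nearest regions outside were at 1027 bp from Rpl7, in 12 cells, and at 1403 bp from Rps10, in 20. Rpl4 had 3 regions, and Rpl7, Rpl10, Rpl36al, Rpl38, Rpl39, Rps23 and Rpl7l1 had 2 each, so members of these genes share a source.

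Some members share their promoter. Within 1000 bp of 16 of the 78 regions (20.5%) starts another protein-coding gene, against 13.8% of the other 8708 promoter regions that lie near more than 1 gene. These pairs include Rps18 with Vps52, Rpl35 with Arpc5l, Rps28 with Ndufa7, Rpl36al with Mgat2, Rpl9 with Lias, Rpl7a with Med22, Rps27 with Rab13 and Rps24 with Polr3a. Signal at such a region cannot be assigned to either gene. A second copy elsewhere in the genome was found for 1 member, Rpl37a, and for 2.4% of the other promoters, so 77 of 78 regions are single-copy by this measure.

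In level, the ribosomal protein promoters resembled other promoters. A member region held a median of 30.5 counts over the 4 runs, from 5 to 86, with an interquartile range of 18.25 to 41. The other promoter regions had a median of 29 and an interquartile range of 16 to 45, but reached 454. The median member exceeded 53.5% of the other promoters. Mean counts per member region, relative to the mean of the other promoters, were 0.947 and 0.879 at 0 hours and 0.968 and 1.03 at 24 hours, so the time-points did not overlap. This difference in order was small, and with 2 runs against 2 an exact permutation test cannot give a p below 0.333. The median member was detected in 12.5%, 6.38%, 8.33% and 9.72% of the cells of the 4 runs, and the median of other promoters was 10.4%, 6.38%, 8.33% and 6.94%.

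**Figure D1:**
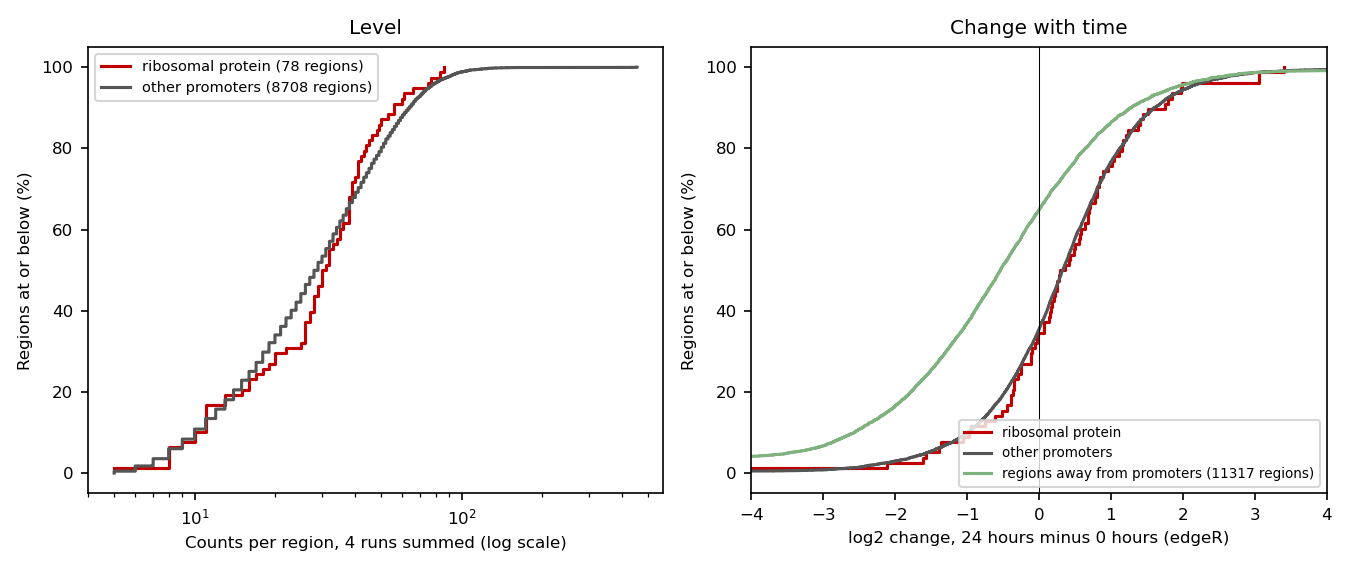
Cumulative share of regions (%) by counts summed over the 4 runs (left, log axis) and by the edgeR log2 change from 0 to 24 hours (right, shown from -4 to 4), for the 78 ribosomal protein regions, the 8708 other promoter regions and, on the right, the 11317 regions away from promoters. With all runs, the ribosomal protein curve follows that of the other promoters in both panels, while regions away from promoters are shifted to lower change.

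The 10 genes detected in the most cells came from both subunits. Rpl37, of the large subunit, was detected in 12 of 48 and 9 of 47 cells at 0 hours and in 9 of 60 and 20 of 72 at 24 hours. Over all cells this was 22% (exact 95% binomial interval 16.8 to 28%), and the 24-hour runs lay on either side of both 0-hour runs. Rpl18 was detected in 27.1% and 10.6% of cells at 0 hours and 26.7% and 15.3% at 24 hours, so run 1 of each time-point nearly coincided.

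Rps18, Rps3a1, Rplp1, Rpl36al, Rpl27, Rplp2 and Rps15 were also among the 10. Over all cells they were detected in 15% (Rps15) to 21.1% (Rps18), and the interval of the lowest, 10.6 to 20.3% for Rps15, overlaps that of the highest, 16.8 to 28% for Rpl37, so neighbours in this order are not separated. Such intervals cover counting error only. Rps15 shows how far the runs of a time-point could differ, with 18.8% and 6.38% of cells at 0 hours and 3.33% and 27.8% at 24 hours. The steadiest of the 10 was Rps3a1, with 20.8% and 14.9% at 0 hours and 18.3% and 19.4% at 24 hours.

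**Figure D2:**
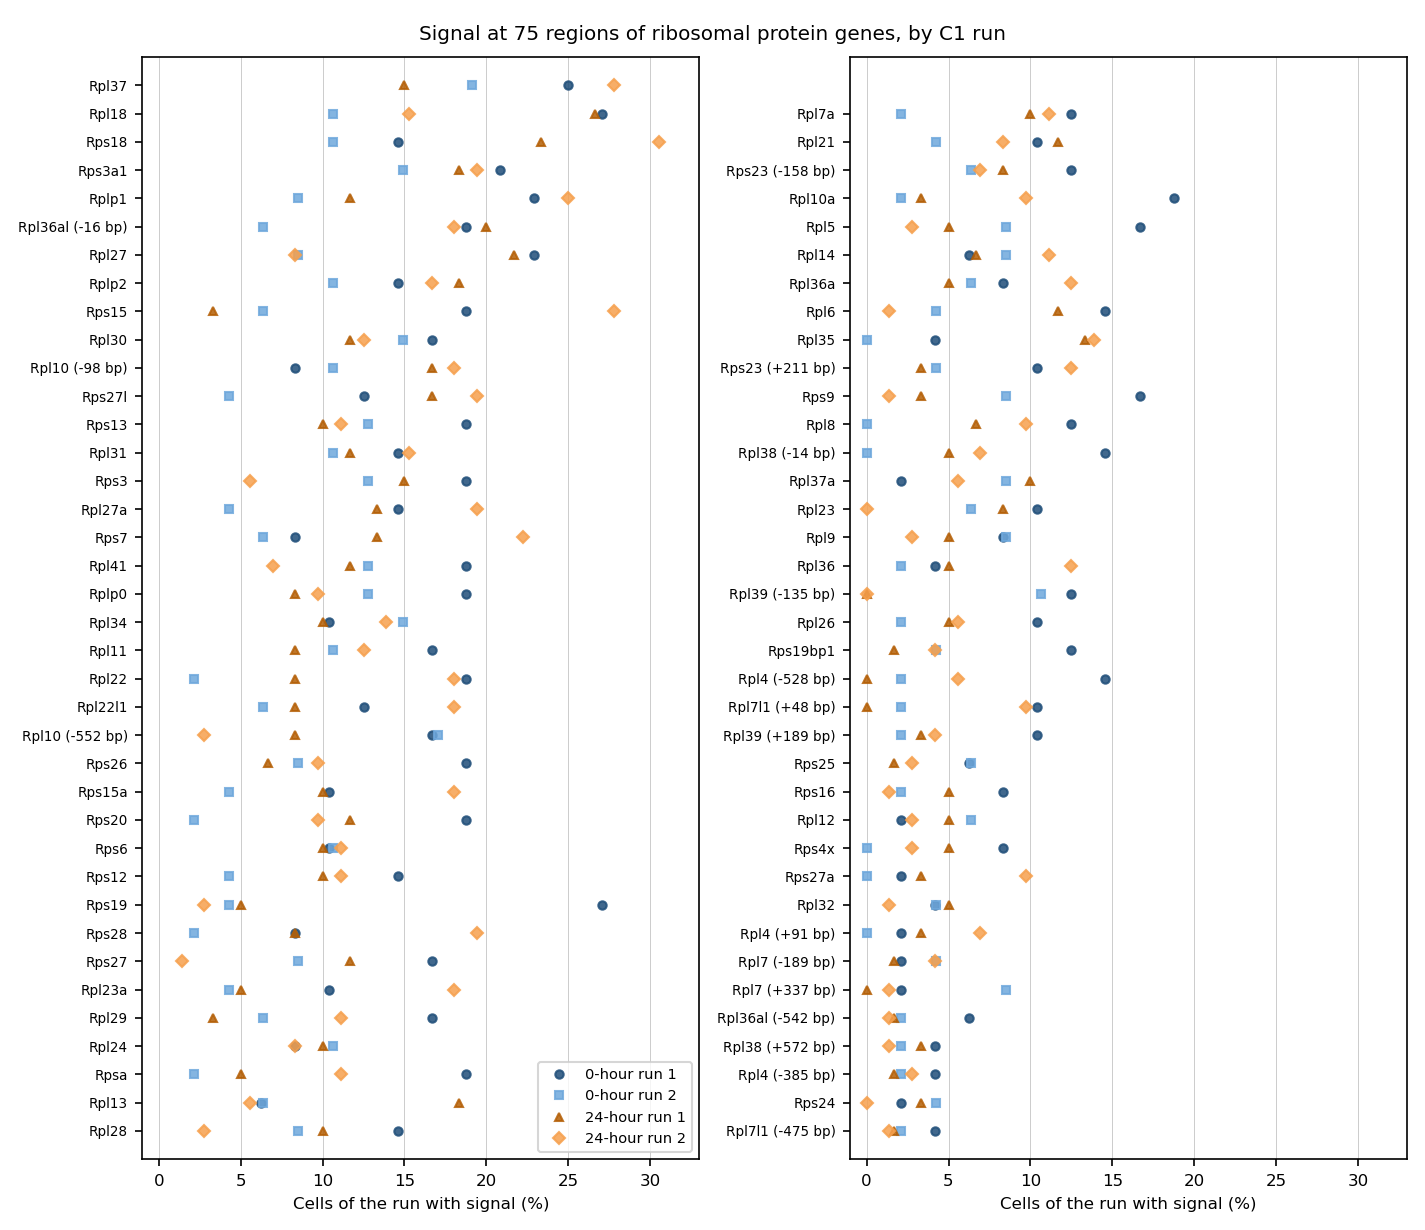
Share of cells with signal (%) at 75 of the 78 regions in each C1 run, ordered by the mean over runs, with the position of the midpoint given where a gene has several regions. Points are single runs, and no error bars are drawn. The most detected regions reach 20 to 30% of cells in some runs and lie lower in others, while the least lie below 10% in every run.

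The stalk and the scaffold proteins fell in the upper and middle ranges. Rplp1 and Rplp2, the acidic proteins of the ribosomal stalk, and Rplp0, which anchors them, were detected in 17.6%, 15.4% and 11.9% of all cells. Rplp2 was the one of these with both 24-hour runs above both 0-hour runs, at 137 and 139 CPM (TMM-normalized counts per 1e+06 counts) against 66.7 and 94, with a log2 change of 0.81 ± 0.61 (SE) and an adjusted p of 0.642 by edgeR's quasi-likelihood test. Rplp0 had the opposite order, with 97 and 94 CPM at 0 hours and 56.6 and 88 at 24 hours. Its log2 change was -0.39 ± 0.68 (adjusted p = 0.874). Rpsa, a small-subunit protein also known as the laminin receptor, was detected in 9 and 1 cells at 0 hours and 3 and 8 cells at 24 hours, so the runs of a time-point differed more than the time-points.

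At the lower end, the region upstream of Rpl7l1 held 5 counts in all, 2, 1, 1 and 1 in the 4 runs, the fewest of any member. Rps24 held 2 and 2 counts at 0 hours and 4 and 0 at 24 hours, and the second-nearest Rpl4 region 2, 1, 2 and 3. Of the 78 regions, 12 had no count in at least 1 run, and 57 had at least 20 counts in all. At this depth changes in the weakest regions were not detectable.

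The paralogs and Rps19bp1 spread over the whole range. Rps27l, an inducible relative of Rps27, held 9 and 2 counts at 0 hours and 17 and 20 at 24 hours. Rpl22l1 held 8, 5, 6 and 21 counts, and its parent Rpl22, dispensable for general translation but needed in lymphocyte development, 11, 2, 6 and 22. In CPM, 24-hour run 2 was the highest run at both genes, with 154 at Rpl22l1 and 161 at Rpl22. The region covering the Rpl36al start held 13, 6, 17 and 24 counts, and Rps19bp1 held 7, 3, 2 and 6.

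Between 0 and 24 hours no ribosomal protein region passed the test. edgeR called 0 of 78 member regions in either direction at an adjusted p of 0.05, where 3 of all 20103 regions (0.0149%) were called higher at 0 hours and 8 (0.0398%) higher at 24 hours. The smallest adjusted p of a member was 0.134, at Rpl35. At an unadjusted p below 0.05, 2 members were higher at 0 hours and 5 at 24 hours, against 1.91% and 7.69% of the other promoters. DESeq2 also called 0, with 1 and 4 members at an unadjusted p below 0.05, against 0.666% and 3.43% of the other promoters. With calls this rare over all regions, a count of 0 among 78 does not show that these promoters were stable.

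With all runs, the median log2 change of the members was 0.32, with an interquartile range of -0.25 to 0.94, beside 0.33 and -0.30 to 0.95 for the other promoters and -0.06 for all regions. The likeness rests on the set of runs. The members' median was above that of other promoters with each run left out, at 0.70 against 0.52 without 0-hour run 1, 0.41 against 0.31 without 0-hour run 2, 0.64 against 0.34 without 24-hour run 1 and 0.32 against 0.17 without 24-hour run 2, and at 0.33 against 0.16 among regions detected in at least 10% of cells. Other fits that kept all runs lay closer, at 0.30 against 0.32 with a replicate block and 0.28 against 0.28 with run totals. The medians were 0.40 against 0.37 in thinned cells, 0.38 against 0.34 by DESeq2 and 0.41 against 0.37 by detection. The fits with a run left out share runs, and none of these differences was tested. In the first fit given here, the change was above 0 at 51 members (65.4%) and at 64.6% of other promoters. The time-points did not overlap, with 24 hours the higher, at 22 of 78 members (28.2%), against 28% of other promoters and 19.3% of all regions. With 0 hours the higher, this held at 8 members (10.3%), against 13.2% of other promoters and 25.7% of all regions. The common shift depends on the scaling, since with the number of cells as the offset the medians were -0.13 for the members and -0.14 for other promoters, and 22 and 8 became 12 and 13. Shares of other promoters without overlap were not counted under that offset.

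As part of the signal, the members took 0.429% and 0.379% of all counts at 0 hours and 0.501% and 0.607% at 24 hours. Promoters as a whole went from 51% and 48.5% of counts to 58.3% and 66.4%. Within promoter counts the members took 0.841% and 0.781% at 0 hours and 0.859% and 0.914% at 24 hours, a difference of 0.076 percentage points between the means, or 0.036 in thinned cells. The runs of a time-point differed by about as much as the time-points did. Without the 16 regions that share their promoter with another gene, the difference was 0.0207 percentage points.

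The regions of each subunit were also summarised apart. The 51 large-subunit regions had a median log2 change of 0.29, with 34 above 0, and 13 (25.5%) had both 24-hour runs the higher and 7 (13.7%) both 0-hour runs. For the 27 small-subunit regions the median was 0.49, with 17 above 0, and these counts were 9 (33.3%) and 1 (3.7%). The same shares were 28% and 13.2% of other promoters and 19.3% and 25.7% of all regions. Whether the subunits differ was not tested. Of the 5 members higher at 24 hours at an unadjusted p below 0.05, 4 were of the small subunit, where 7.69% of other promoters were at this level.

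Rpl35, Rps18 and Rps7 had the largest log2 changes toward 24 hours among members with at least 20 counts when all counts were used. In thinned cells this order did not hold, with 0.89 at Rps18, 0.92 at Rps7 and 2.74 at Rpl35 beside 3.08 at Rps28 and 2.58 at Rps27l. The Rpl35 region, chr2:39005107-39005257, covers the RefSeq start printed above and lies in a UTR exon of the longer GENCODE transcript. Its midpoint is 442 bp from the GENCODE start and 166 bp upstream of Arpc5l. It held 3 and 0 counts at 0 hours and 14 and 19 at 24 hours, in 2 of 95 and 18 of 132 cells. Both 24-hour runs were thus high and both 0-hour runs near 0. The ratio of normalized counts was 11 (exact 95% counting interval 3.46 to 56.2). This interval takes each count as independent, although 52.3% of the members' values above 0 were 2, so it may be too narrow. The region reached 20 counts through the 24-hour runs and was named for its size of change, so this interval describes counting error and supports nothing further. The fitted log2 change was 3.41 ± 0.93, with an adjusted p of 0.134.

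The Rps18 region, chr17:33955669-33955831, ends just upstream of the RefSeq start with the 9-base tract, in an intron of the longest GENCODE transcript and 62 bp upstream of Vps52. It held 10 and 7 counts at 0 hours and 25 and 44 at 24 hours, the most of any member. In CPM the runs were 60.6 and 73.1 against 202 and 323. They did not overlap, with a log2 change of 1.98 ± 0.56 and an adjusted p of 0.146. Rps7, whose product also binds the p53 regulator Mdm2, has no other gene near its region, chr12:28635909-28636057. It held 7 and 4 counts at 0 hours and 14 and 31 at 24 hours, with a log2 change of 2.00 ± 0.66 (adjusted p = 0.202).

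Rps28 and Rps27l followed. Rps28 held 6, 1, 7 and 18 counts, with a log2 change of 1.85 ± 0.86 (adjusted p = 0.362), and Rps27l changed by 1.79 ± 0.69 (adjusted p = 0.275). In Rps28 24-hour run 1 lay near 0-hour run 1, with 56.6 and 36.4 CPM, whereas in Rps27l both 24-hour runs, 137 and 147 CPM, lay well above 54.6 and 20.9. With 24-hour run 1 left out, Rpl35, Rps18 and Rps7 were called higher at 24 hours, with adjusted p of 0.0128, 0.00783 and 0.0144. In that fit 456 of all 20103 regions (2.27%) were called in this direction, beside these 3 of 78, under the assumption that the lone 24-hour run varies as the 0-hour runs do. The log2 changes kept their sign with any run left out but moved in size. Rpl35 lay between 2.74 (0-hour run 2 left out) and 6.93 (0-hour run 1 left out, which puts the 0-hour group at 0, so that the value is no bound). Rps28 lay between 1.11 (24-hour run 2 left out) and 3.09 (0-hour run 1 left out), Rps27l between 1.37 (0-hour run 2 left out) and 2.73 (0-hour run 1 left out), Rps7 from 1.41 to 2.40 and Rps18 from 1.61 to 2.28, both lowest without 24-hour run 2 and highest without 24-hour run 1.

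Toward 0 hours, the largest differences among members with at least 20 counts were at Rps9, Rps19, Rpl5, an upstream Rpl10 region and Rpl9. Rps9, at chr7:3703887-3704041 around its RefSeq start, held 15 and 8 counts at 0 hours and 4 and 1 at 24 hours. Its runs were separated, at 91 and 83.6 CPM against 32.3 and 7.33, with a log2 change of -2.12 ± 0.93 and an adjusted p of 0.327. Rpl5, which with Rpl11 carries the smallest RNA of the large subunit, held 13, 6, 5 and 2 counts. Its log2 change was -1.37 ± 0.92 (adjusted p = 0.589). Rps19, the gene most often mutated in Diamond-Blackfan anaemia, held 17, 3, 4 and 2 counts, with a log2 change of -1.57 ± 0.95 (adjusted p = 0.539). Leaving out 0-hour run 1, its highest run, gave a log2 change of -0.39. Rpl9 held 6, 7, 3 and 4 counts, with a log2 change of -0.95 ± 0.99 (adjusted p = 0.762). None of these 5 regions reached 20 counts without the 0-hour runs, so their values are descriptions. These values too moved with the runs kept. Rps9 lay between -1.41 (24-hour run 2 left out) and -3.42 (24-hour run 1 left out), Rpl5 from -0.82 to -2.22 and the Rpl10 region from -0.41 to -1.74 over the same runs. Rps19 reached -2.23 without 24-hour run 1, and Rpl9 lay between -0.43 (0-hour run 2 left out) and -1.39 (0-hour run 1 left out), or -0.12 in thinned cells.

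**Figure D3:**
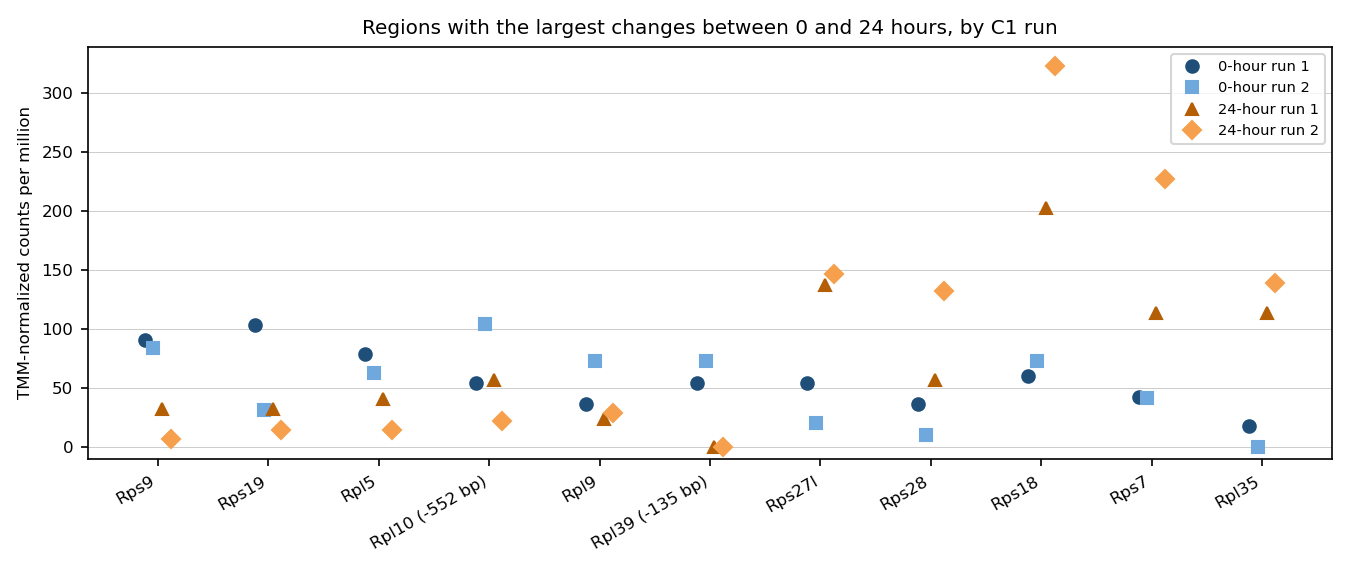
TMM-normalized CPM in each C1 run at the 5 regions with the largest log2 change in each direction among members with at least 20 counts, and at the upstream Rpl39 region. Points are single runs, and no error bars are drawn. Rpl35, Rps7, Rps18, Rps28 and Rps27l have both 24-hour runs on top, while Rps19 and the Rpl10 region overlap between time-points.

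Genes with several regions could differ between them. The region around position -98 of Rpl10 held 6 and 5 counts at 0 hours and 14 and 16 at 24 hours, with a log2 change of 1.40 ± 0.72 (adjusted p = 0.435). That at -552 bp held 9 and 10 counts at 0 hours and 7 and 3 at 24 hours, with a log2 change of -0.97 ± 0.84 (adjusted p = 0.700), so the regions pointed in opposite directions without either passing the test. Rpl36al held 13 and 6 counts at 0 hours and 17 and 24 at 24 hours at its start but 5, 1, 1 and 1 at its upstream region, which is near the limit of detection.

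Rpl39 also has an upstream region, named here after its values were seen, since its 16 counts fall under the minimum of 20 set for naming changes. It was detected in 6 of 48 and 5 of 47 cells at 0 hours and in 0 of 60 and 0 of 72 at 24 hours, where the floor of 3 counts used here is 2.27% of the 132 cells and the exact 95% upper limit of the share of cells with signal is 2.76%. Its 11 cells are all 0-hour cells, so it entered the matrix, whose regions are each detected in at least 5 cells, through the group where it is high, and the values are a description. It did not pass the test (adjusted p = 0.168, from 0.0647 to 0.834 over the alternatives). The region at the Rpl39 start held the same total, 16 counts, as 8 and 1 at 0 hours and 2 and 5 at 24 hours, with no separation. The upstream region, chrX:37085497-37085578, lies 135 bp upstream of the GENCODE start and overlaps no annotated Rpl39 exon. It is printed on the strand of the gene because it is the member with no signal at 24 hours, with the single match within these 82 bases to a motif searched, a GC box on the opposite strand, in capitals. The 150-base window around it also holds GGGAA, the core that Ikaros binds.
Rpl39: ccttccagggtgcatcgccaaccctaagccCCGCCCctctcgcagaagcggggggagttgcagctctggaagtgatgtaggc

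Within single cells, the number of member regions with signal followed depth. A cell had signal at a median of 7.5 and 4 member regions at 0 hours and 6 and 6 at 24 hours, from 0 to 30, and 0, 1, 2 and 2 cells of the runs had none. When each cell was thinned to 837 counts, a depth that 23 cells did not reach, 48 of 48 and 46 of 47 cells were left at 0 hours and 47 of 60 and 63 of 72 at 24 hours. Their medians were 3 and 3 at 0 hours and 3 and 4 at 24 hours. The thinned means were 3.21 and 2.59 at 0 hours and 3.49 and 4.27 at 24 hours, so both 24-hour runs were the higher, and the other promoters had the same order, with medians of 375.5 and 333.5 against 414 and 459 regions. The members made up 0.842% and 0.764% of promoter regions detected in thinned 0-hour cells and 0.83% and 0.922% in 24-hour cells, which overlap. Before thinning, the mean over runs was lower at 24 hours, a difference of -0.158 regions per cell.

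**Figure D4:**
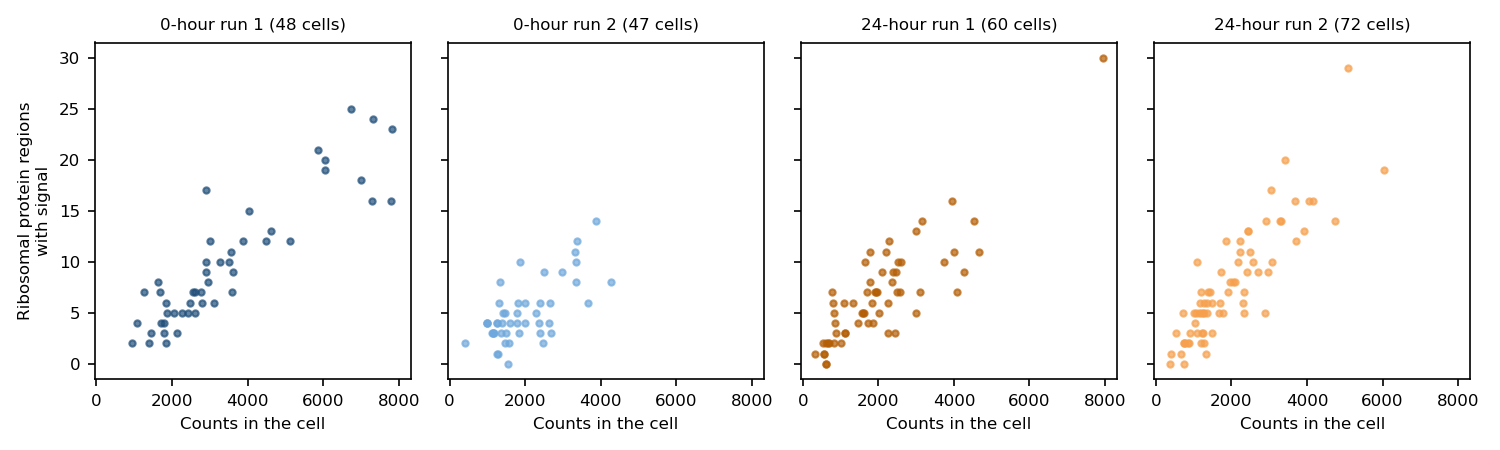
Number of the 78 ribosomal protein regions with signal in each cell against the counts of that cell over all regions, in 1 panel per C1 run. Each point is a cell. Cells with more counts have more member regions in every run, up to 30 in the cell with 7940 counts.

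In sequence, the members were described beside other promoters without a test. Their regions had a median GC content of 60.2% against 65.7%, and a ratio of observed to expected CpG of 0.982 against 0.855. Motifs were searched on both strands in 150 bases centred on each region. The ETS motif CCGGAAG was in 18 members (23.1%, against 16.1% of other promoters), among them Rps18, Rps7, Rplp1, Rplp2 and Rps6. It was also in 30.6% of 72 regions of mitochondrial ribosomal protein genes and 27.4% of 62 regions of translation factor genes. The TATAAA box was in 5 members (6.41% against 1.98%), among them Rpl22l1, Rps20, Rps28 and Rpl36a, and the YY1 motif in 4 (5.13% against 2.84%), at Rps27, Rpl23a, Rpl24 and Rpl7l1. The GC box GGGCGG was in 39 members (50% against 55.2%), the NRF1 motif GCATGCGC in 3 (3.85% against 4.21%) and the E-box CACGTG, the site of Myc and Max, in 7 (8.97% against 6.96%). GGGAA, the Ikaros core, was in 36 members (46.2%, against 37.8% of other promoters). The ETS motif and the Ikaros core share the letters GGAA.

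The members often host snoRNA genes. Of the 69 genes, 25 (36.2%) contain a snoRNA gene on the same strand, against 1.67% of 8374 other genes with a promoter region, and they hold 47 snoRNA genes. Rpl4 contains 5, and Rpl23a, Rpl5, Rpl7a, Rps12 and Rpsa 3 each.

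**Figure D5:**
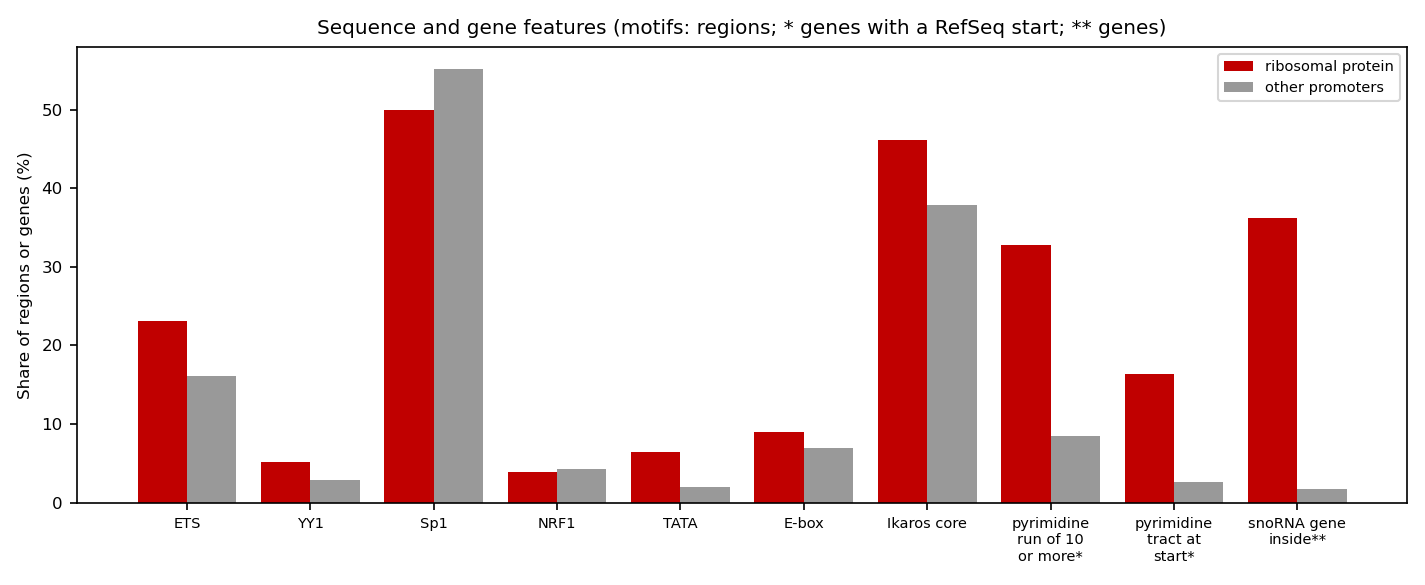
Share (%) of the 78 ribosomal protein regions and the 8708 other promoter regions with each motif, and share of genes with a pyrimidine run of 10 bases or more near the RefSeq start, a tract of 5 or more from a C at the start, or a snoRNA gene inside. Each pair of motif bars differs by less than 10 percentage points, and the bars for snoRNA genes, 36.2% against 1.67%, differ most.

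The genes that build the ribosome were examined in the same way. Of a list of 41 genes for ribosome biogenesis and its Myc-family regulators, 36 had 42 promoter regions. Of these, 0 were called by edgeR in either direction, where 3 and 8 of all 20103 regions were, and DESeq2 called 0 over all regions. At an unadjusted edgeR p below 0.05 there were 0 and 1, against 1.91% and 7.69% of other promoters. The median log2 change of the 42 regions was 0.12, with 24 above 0. Among them 8 (19%) had both 24-hour runs the higher and 6 (14.3%) both 0-hour runs, beside 28% and 13.2% of other promoters. Npm1, a nucleolar chaperone of ribosome assembly, held 3 and 0 counts at 0 hours and 10 and 24 at 24 hours. It was named after its values were seen. The ratio was 11.4 (exact 95% counting interval 3.57 to 57.8), and the adjusted p was 0.130. Npm1 was detected in 4.17% and 0% of cells at 0 hours and in 10% and 19.4% at 24 hours. The region thus reached the minimum number of cells for the matrix only through the 24-hour runs. Its interval takes each count as independent, describes counting error and supports nothing further. Of the 3 Myc regions, that with the most counts held 8 and 11 at 0 hours and 2 and 6 at 24 hours (log2 change -1.34 ± 0.89, adjusted p = 0.586). Ncl, for nucleolin, held 24, 15, 19 and 13 counts without separation.

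The regions of mitochondrial ribosomal protein genes had a median log2 change of 0.38 over 72 regions, and those of translation factors 0.39 over 62. Both 24-hour runs were the higher at 22 (30.6%) and 21 (33.9%) of them, and both 0-hour runs at 9 (12.5%) and 10 (16.1%), beside 28% and 13.2% of other promoters. Mean counts per region relative to other promoters were 0.972, 0.946, 0.927 and 1.13 in the 4 runs for the former, and 0.981, 1.05, 1.03 and 1.03 for the latter. The cytosolic members, at 0.947, 0.879, 0.968 and 1.03, were the lowest of these groups in the 0-hour runs, and whether the groups differ was not tested.

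The labelled cell type was checked against its defining markers. Promoter regions were present for 8 of 14 B-lineage markers, with 98, 58, 70 and 62 counts in the 4 runs, and for 0 of 6 T-cell and 0 of 5 erythroid markers. The myeloid list was represented by 1 of 7 genes, Lyz2, with 2, 4, 0 and 1 counts, and the list of other tissues by 1 of 5, Pecam1, with 6, 6, 0 and 1. Their part in the ribosomal protein values was not tested.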

How the data were processed

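Single-cell ATAC-seq of mouse B3 pre-B cells was analysed. The authors deposited 1 matrix of whole-number counts, 20103 regions by 227 cells, without normalization. Per the labels and the study's methods, reads were mapped to mm10 with Bowtie2, duplicates were removed with Picard and peaks were called on bulk samples with HOMER. Values end at 2, and the sources used here do not say whether higher values were capped. The bulk samples were not analysed here, and a few genes are counted but not reported by name.

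Counts were summed per C1 run (92639 to 164357), since cells are not replicates, and the 2 runs were the replicates. Regions were tested across all 20103 with edgeR 4.0.16 in R 4.3.3 (quasi-likelihood, TMM, Benjamini-Hochberg, threshold 0.05), with DESeq2 1.42.0 as an alternative. The edgeR script was tested on simulated data. Start sites came from GENCODE vM21, and sequences from RefSeq and the GRCm38.p6 genome, the build of the regions. Copies were counted with BLAST 2.17.0 at 90% identity over 80% of a region.

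Members and lists were chosen with earlier results of these data known. Regions named were the 10 genes detected in most cells, the 3 lowest regions, the 5 largest changes each way among those with at least 20 counts, any called member, the stalk genes, Rpsa, paralogs and the regions next to the 1000 bp limit. Others, such as the upstream Rpl39 region, were named after their values were seen. Confidence intervals are exact at 95%, and the floor is 3 counts. Alternatives were other normalizations, filters, detection in place of counts, thinned cells, a replicate block, runs left out and other member definitions.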

Additional observations from a re-analysis of the deposited data

How the results depend on the processing

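The 0 calls among member regions were the same under the alternatives run, except without 24-hour run 1. Some members were then called higher at 24 hours. That fit holds a lone 24-hour run, and calls over all regions became more frequent in both directions, so its calls are not used here. With each run left out in turn, the members with both 0-hour runs above numbered 15 to 25 and those with the 24-hour runs above 32 to 41, where 8 and 22 were found with all runs and fewer runs separate more easily, and the median log2 change ran from 0.32 to 0.70, against 0.17 to 0.52 for other promoters, below the members in each of these fits. With the number of cells as offset, 13 members had both 0-hour runs above, 12 had both 24-hour runs above, and the median change turned to -0.13. Among the 33 members detected in at least 10% of cells the counts were 5 and 12, with fewer regions tested. Without regions near another gene, 14 members had both 24-hour runs above, and the difference in share of promoter counts was 0.0207 percentage points, with 62 regions. Shares of other promoters and of all regions without overlap were counted only in the first fit, with all runs and TMM. The member counts without overlap under the other settings have no such share beside them, so they show nothing particular to the members. Against other promoters of similar width, the mean ratio of counts per region was 0.89 in place of 0.956, and the cause was not tested. Without thinning, the difference in member regions per cell turned from 0.982 to -0.158. Both depth and the cells kept differ between these values, since thinning left 47 of 60 and 63 of 72 24-hour cells but 48 of 48 and 46 of 47 0-hour cells, and the cause was not tested. In thinned cells the difference in share was 0.036 percentage points in place of 0.076. Over the runs left out, the difference in share was 0.046 to 0.106 percentage points, the ratio 0.931 to 0.981 and the difference per cell 0.592 to 1.37.

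With the replicate number as a block, 0 members were called in either direction and the median change was 0.30. Same-numbered runs did not deviate together (correlation of deviations -0.02 over 20103 regions), and nothing in the labels ties run numbers across time-points, so they share only a number. The block moved the calls over all regions from 3 and 8 to 2 and 9. Depth was low, with the median member detected in 20 of 227 cells, and its part in these results was not tested.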
